A study of Schizosaccharomyces pombe with 2 samples.

Results

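The 7 septin genes of fission yeast (Schizosaccharomyces pombe), spn1 to spn7, were described intron by intron in prp2-1 cells entering meiosis I at 25 °C and 34 °C. Their introns were taken by gene identifier from a table of spliced and unspliced reads, 17 of 5374 introns and 7 of 2548 genes. The identifiers are SPAC4F10.11 for spn1, SPAC821.06 for spn2, SPBC16A3.01 for spn3, SPAC9G1.11c for spn4, SPAC24C9.15c for spn5, SPCC188.12 for spn6 and SPBC19F8.01c for spn7. The family was chosen by name, with the unspliced shares and reads of its introns at both temperatures already known from the same libraries, so these values are given as a description, without a test. The strain was labelled pat1_as2 prp2-1. It was grown in minimal medium at 25 °C, arrested in G1 by removal of nitrogen and driven into synchronous meiosis by chemical induction. As cells began meiosis I, 1 part of the culture stayed at 25 °C and the other went to 34 °C, and both were collected 1 h later (8 h in the sample titles). prp2-1 makes Prp2, the U2AF65 protein, fail at 34 °C. Both libraries carry it, so the effect of 34 °C and the effect of losing Prp2 cannot be told apart. PolyA RNA was sequenced in 1 library per temperature, so no difference has a replicate check, and every interval covers counting error only.

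Septins are GTP-binding proteins that join into filaments and rings under membranes. In growing fission yeast Spn1, Spn2, Spn3 and Spn4 form a ring at the division site that guides the separation of daughter cells. In meiosis Spn2, Spn5, Spn6 and Spn7 assemble along the forespore membrane, the membrane sac that grows around each nucleus and becomes the spore's plasma membrane. Splicing of their transcripts begins when the U1 particle pairs with the 5′ splice site and U2AF binds the pyrimidines before the 3′ splice site. The title of the study names Prp2 and U1 at the 5′ splice site, so the introns of spn2 and spn7, which hold the smallest and the largest changes of the family, are shown in full. They are printed 5′ to 3′ on the coding strand of the ASM294v3 assembly, annotated by RefSeq. Capitals mark the first 6 bases (the 5′ splice site), the branch site motif nearest the 3′ end (the motif CTAAC, the motif CTAAT, the motif CTGAC or the motif CTGAT, sought on the coding strand only) and the last 3 bases. The introns of spn2 lie on the plus strand of chromosome I at chrI:990290-990338, chrI:990414-990471, chrI:990601-990711 and chrI:990794-990855, in the order of their numbers.
spn2 intron 1: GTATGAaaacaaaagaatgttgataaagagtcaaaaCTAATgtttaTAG
spn2 intron 2: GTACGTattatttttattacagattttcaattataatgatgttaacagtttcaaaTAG
spn2 intron 3: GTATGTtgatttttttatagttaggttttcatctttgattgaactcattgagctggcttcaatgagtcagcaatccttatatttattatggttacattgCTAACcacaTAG
spn2 intron 4: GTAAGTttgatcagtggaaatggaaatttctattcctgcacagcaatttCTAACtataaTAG
The introns of spn7 lie on the minus strand of chromosome II at chrII:3229161-3229202, chrII:3229316-3229354, chrII:3229867-3230017, chrII:3230112-3230161 and chrII:3230244-3230287.
spn7 intron 1: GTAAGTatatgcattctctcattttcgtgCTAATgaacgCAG
spn7 intron 2: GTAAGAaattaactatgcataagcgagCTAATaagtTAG
spn7 intron 3: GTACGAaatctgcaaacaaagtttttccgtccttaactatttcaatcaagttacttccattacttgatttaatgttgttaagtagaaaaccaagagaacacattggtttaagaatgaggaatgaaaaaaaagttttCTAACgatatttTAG
spn7 intron 4: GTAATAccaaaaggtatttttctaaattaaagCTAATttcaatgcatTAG
spn7 intron 5: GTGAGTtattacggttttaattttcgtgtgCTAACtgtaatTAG
Introns are numbered as in the table, which is taken here to count along the chromosome from its left end, so that intron 5 of spn7 is the first of its transcript. If the table instead counts along the transcript, introns 1 and 5 of spn7 exchange sequences, as do its introns 2 and 4 and the introns of spn5 and of spn3. Intron 3 of spn7 and all introns of spn1, spn2 and spn6 keep their place.

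The libraries held 636989 intron reads at 25 °C and 493659 at 34 °C, of which 6.56% and 39.9% were unspliced. The unspliced share, the percentage of all reads of an intron that are unspliced, was read in the 2508 introns with at least 20 reads in each library, called measured below, where its median was 5.60% at 25 °C and 41.4% at 34 °C. Of the septin introns, 15 introns of 6 genes were measured. Genes taken as marks of the stage differed in depth. At 25 °C there were 989 spliced reads over the intron of mes1, which is needed for meiosis II, 895 over that of mfr1, a meiotic activator of the anaphase-promoting complex, and 7298 over intron 2 of spo6, for a regulator of meiosis II. The introns of rec8, the meiotic cohesin gene, had at most 7 spliced reads and those of meu13, a recombination gene, at most 1. Of the meiotic cyclin genes, crs1 had at most 5 and rem1 had 29.

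Of the septins of the forespore membrane, spn2, spn7 and spn5 had the most spliced reads. Spliced reads are given per intron, and their number also differed between introns of the same gene. They are therefore only a rough measure of a gene's level. At 25 °C the introns of spn2 had 993 to 2318 spliced reads, those of spn7 662 to 1574 and those of spn5 627 and 1857. These 3 ranges overlap. The intron of spn6 had 93 spliced reads. The introns of spn1 had 20 and 40 and those of spn3 16 and 33, so these 2 genes of the division ring also overlap each other and lie below spn6. The table lists 1 intron for spn4, with 0 spliced and 0 unspliced reads in both libraries, which allows up to 3 reads among the 636989 of the cooler library and the 493659 of the warmer one. The RefSeq annotation gives spn4 1 exon, so its transcript cannot be followed through an intron here. The longest identical stretch between any 2 septin coding sequences was 15 nt, between spn1 and spn5.

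Of the 15 measured septin introns, 7 rose in unspliced share by over 20 percentage points at 34 °C, against 67.6% of all measured introns. None fell by over 20 points, against 0.0399%. By over 10 points 11 rose, against 83.7%, and by over 40 points 4 rose, against 40.2%. The median change was 19.03 points, beside 32.3 points for all measured introns. The interval of the change (Newcombe, 95%) lay above 0 in 13 of the 15, against 84.4%. More than 50% of reads were unspliced at 34 °C in 4 septin introns, against 39.5%, and 3 of these 4 belong to spn7. With unspliced reads halved, because an unspliced transcript has 2 exon-intron borders, 4 of the 15 rose by over 20 points, against 52.0% of all measured introns.

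**Figure D1:**
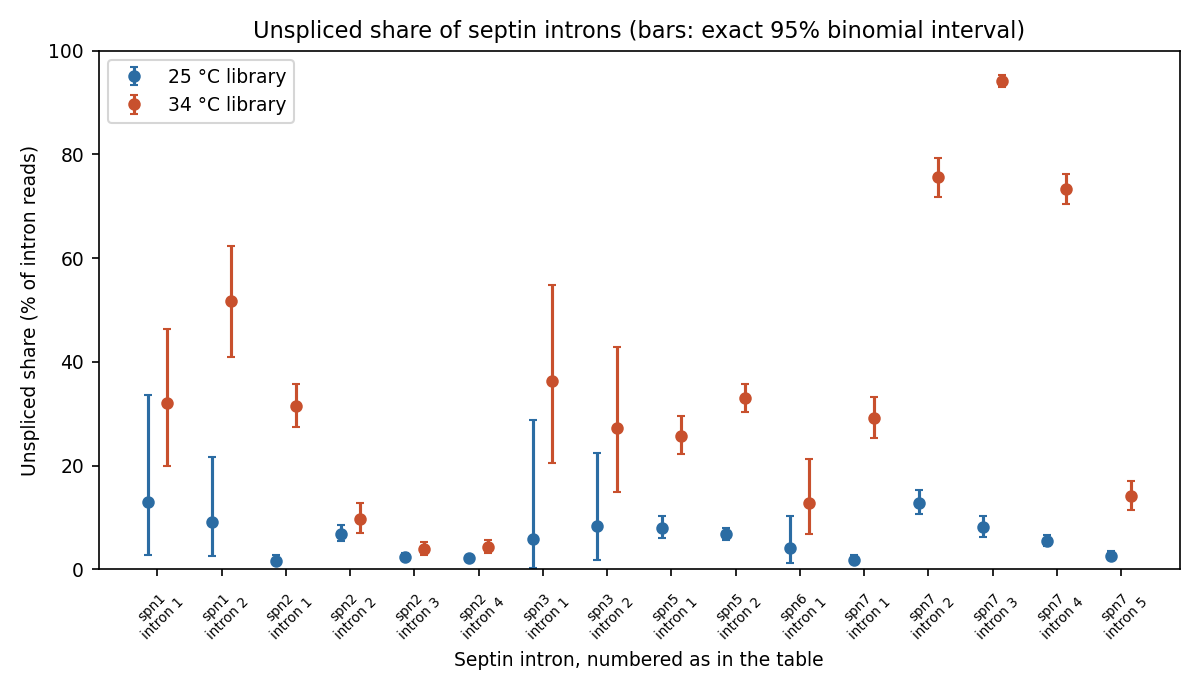
Unspliced share (percent of an intron's spliced and unspliced reads, vertical axis) of each septin intron with reads (horizontal axis) in the 25 °C library (blue) and the 34 °C library (orange), with bars for exact 95% binomial intervals. Introns 2, 3 and 4 of spn7 reach 75.7%, 94.2% and 73.4% at 34 °C, whereas introns 2, 3 and 4 of spn2 stay at 9.61%, 3.92% and 4.26%.

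The transcript of spn7, a septin made in meiosis, changed most. Intron 3 had 662 spliced and 58 unspliced reads at 25 °C, and 102 spliced and 1652 unspliced at 34 °C. Its share rose from 8.06% (exact 95% interval 6.17 to 10.3) to 94.2% (93.0 to 95.2), a change of 86.1 points (83.6 to 88.2) and the 12th largest of the 2508. Intron 4 went from 91 unspliced of 1665 reads to 664 of 905, and its share rose by 67.9 points (64.7 to 70.9). Intron 2 went from 110 of 855 to 408 of 539, and its share rose by 62.8 points (58.3 to 66.8). These 3 introns, which are neighbours in the transcript, each lost most of their spliced reads, down to between 0.153 and 0.176 of the number at 25 °C without scaling.

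The outer introns of spn7 changed less. The share of intron 1 was 1.73% of 983 reads at 25 °C and rose to 29.2% of 518 reads, by 27.4 points (23.5 to 31.5). Intron 5 had 2.53% of 1381 reads and 14.1% of 626 reads unspliced, a change of 11.5 points (8.84 to 14.5). The gap between the changes of introns 3 and 5 was 74.6 points, and 3 of the 627 genes with at least 2 measured introns held a wider gap. The median gap over these genes was 23.6 points.

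Intron 3 of spn7 also gathered the most unspliced reads of any septin intron, 1652 against 408 and 664 in introns 2 and 4. It is the longest intron of the gene, with 151 nt. With introns counted from the left end, the unspliced reads per base at 34 °C were 10.5, 10.9 and 13.3 in introns 2, 3 and 4. They were 3.60 in intron 1 and 2.0 in intron 5. Counted along the transcript, introns 2 and 4 would have 8.16 and 17.0, and introns 1 and 5 would have 3.43 and 2.10. Intron 3 keeps its value. What part of an intron a read had to cover to count as unspliced is not given in the sources used here. The total of intron 3 went from 720 to 1754 reads, while the totals of the other introns went to between 0.453 and 0.630 of their number at 25 °C.

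**Figure D2:**
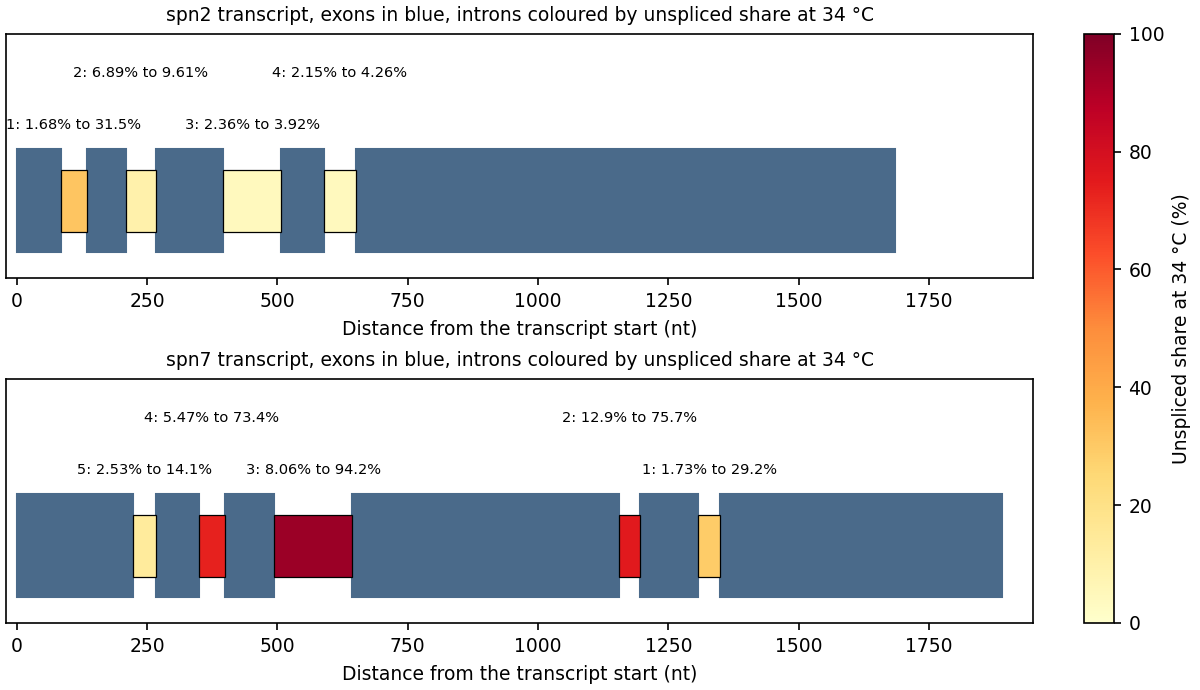
Transcripts of spn2 and spn7 drawn to scale from the transcript start (horizontal axis, nt), with exons as blue boxes and introns coloured by unspliced share at 34 °C. Labels give the intron number of the table and the share at 25 °C and 34 °C, with numbers counted along the chromosome from its left end, and the middle introns 4, 3 and 2 of spn7 stand at 73.4%, 94.2% and 75.7%.

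In spn2, the septin used both in the division ring and at the forespore membrane, intron 1 stood apart from the rest. Its unspliced reads went from 17 of 1010 to 154 of 489, and the share rose from 1.68% (0.983 to 2.68) to 31.5% (27.4 to 35.8), by 29.8 points (25.7 to 34.1). Intron 2 had 74 unspliced of 1074 reads in the cooler and 44 of 458 in the warmer library, a change of 2.72 points with an interval of -0.187 to 6.05. Intron 3 had 50 of 2122 and 40 of 1021, a change of 1.56 points (0.297 to 3.05). Intron 4 had 51 of 2369 and 44 of 1033, a change of 2.11 points (0.845 to 3.61). The unspliced reads of introns 2, 3 and 4 were thus fewer at 34 °C than at 25 °C before scaling, and 6.22%, 4.47% and 5.26% of measured introns changed less than they did. The introns of spn2 lie within 28.2 points of each other, and 260 of the 627 genes held a wider gap. Gaps over 20 points were found in spn1, spn2 and spn7, 3 of the 4 septin genes with at least 2 measured introns. Of the 627 genes, 58.1% held such a gap. In spn1 the intervals of the 2 changes overlap, -2.99 to 34.9 and 26.8 to 54.1. With a minimum of 50 reads such gaps were found in 2 of 3 septin genes, and the share of all genes at that minimum is not given here.

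The introns most like the deepest septin intron, intron 4 of spn2, were sought among 352 introns of other genes with at least 200 reads in each library, by the distance of the 2 log odds of the unspliced share. The nearest was intron 2 of did4, a gene of the endosomal ESCRT machinery, with 2.27% at 25 °C and 4.17% at 34 °C. Intron 1 of atp3, for a subunit of mitochondrial ATP synthase, had 2.35% and 4.71%. The intron of rpl14, for a ribosomal protein, had 2.10% and 3.39%. This likeness rests on 2 libraries.

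Both introns of spn5, which is made in meiosis, lay between these extremes. In intron 1, 54 of 681 reads were unspliced at 25 °C and 151 of 587 at 34 °C, or 7.93% (6.01 to 10.2) and 25.7% (22.2 to 29.5), a change of 17.8 points (13.7 to 21.9). Intron 2 had 134 of 1991 and 405 of 1229, and its share rose from 6.73% (5.67 to 7.92) to 33.0% (30.3 to 35.7), by 26.2 points (23.4 to 29.1). Their changes lie 8.43 points apart. The intron of spn6, the other septin made in meiosis, had 4 unspliced of 97 reads and 12 of 94, or 4.12% (1.13 to 10.2) and 12.8% (6.77 to 21.2). Its change of 8.64 points has an interval of 0.627 to 17.2, so at this depth its size is poorly fixed.

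The transcripts of spn1 and spn3, which act in the division ring, were read at low depth. In intron 2 of spn1, 4 of 44 reads were unspliced at 25 °C and 46 of 89 at 34 °C, and its share rose by 42.6 points (26.8 to 54.1). Intron 1 of spn1 had 3 of 23 and 17 of 53, a change of 19.03 points with an interval of -2.99 to 34.9. Intron 2 of spn3 had 3 of 36 and 12 of 44, a change of 18.9 points (1.58 to 34.5). Intron 1 of spn3 had 1 of 17 and 12 of 33, which is under the minimum of 20 reads. The measured changes of spn1 and spn3, from 18.9 to 42.6 points, lie inside the range of the forespore membrane septins, from 1.56 to 86.1 points.

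**Figure D3:**
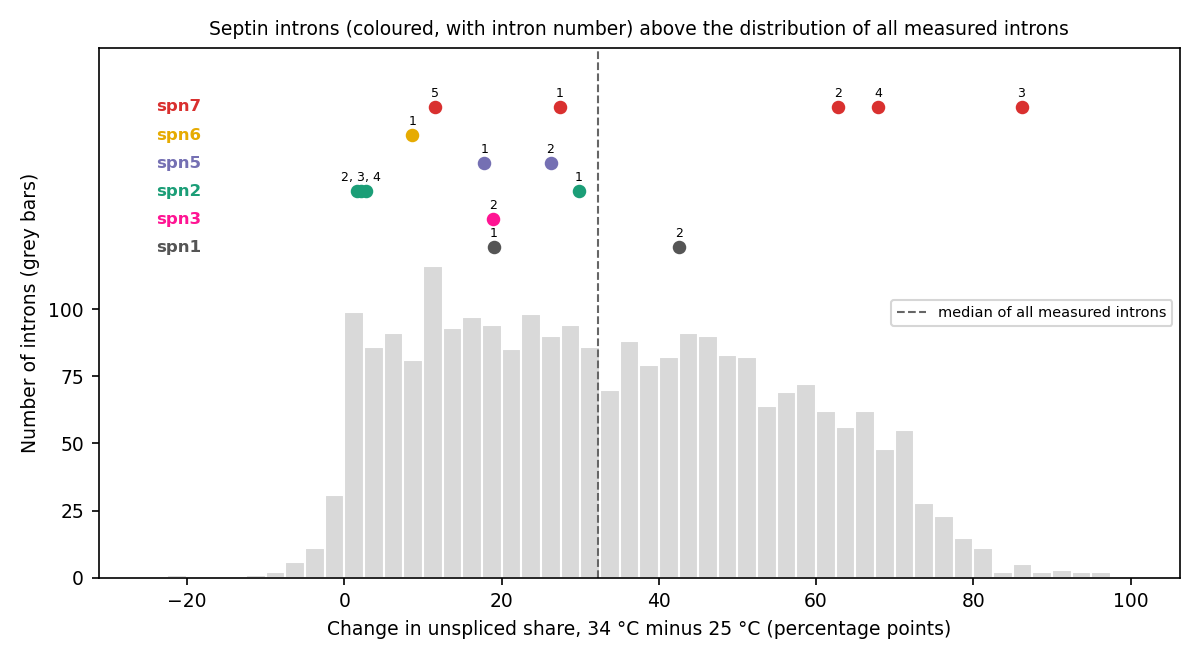
Change in unspliced share from 25 °C to 34 °C (horizontal axis, percentage points) of all 2508 measured introns (grey bars, number of introns on the vertical axis) and of the 15 measured septin introns (coloured points in rows by gene, labelled with the intron number, placed above the bars without a vertical scale). The introns of spn7 span from 11.5 to 86.1 points, whereas introns 2, 3 and 4 of spn2 sit near the lower end, between 1.56 and 2.72 points.

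Spliced reads of spn2, spn5 and spn7 were fewer at 34 °C, as were those of all introns together, 595190 at 25 °C and 296520 at 34 °C. Summed over introns, spn7 had 5293 spliced reads at 25 °C and 1379 at 34 °C, a ratio of 0.336 after scaling by the library totals. spn2 had 6383 and 2719, a ratio of 0.550, and spn5 had 2484 and 1260, a ratio of 0.655. On a log2 scale these sums of spn7, spn2 and spn5 stood at -1.57, -0.86 and -0.61. Over single introns the median was -0.86 in the 15 measured septin introns, beside -0.36 in all measured introns. spn6 had 93 and 82, a ratio of 1.14. spn1 had 60 and 79, and spn3 had 49 and 53, with ratios of 1.699 and 1.40 from few reads. Spliced reads were lower by over 2-fold after scaling in 5 of the 15 measured septin introns, against 29.8% of all measured introns: intron 1 of spn2 and introns 1 to 4 of spn7.

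The sum of spliced and unspliced reads separated the genes differently. After scaling, the log2 ratio of this sum, 34 °C over 25 °C, was -0.00027 for spn7, -0.76 for spn2 and -0.19 for spn5. The value of spn7 rests on intron 3, at 1.65. Its introns 1, 2, 4 and 5 stood at -0.56, -0.30, -0.51 and -0.77. Per intron it was below -1 in 0 septin introns, against 9.73% of measured introns, and above 1 in 3, against 27% of measured introns: intron 3 of spn7 at 1.65 and both introns of spn1 at 1.54 and 1.37. The median over the septin introns was -0.33, beside 0.47 for all measured introns. This sign depends on the scaling, since division by the totals of spliced reads turns the septin median to 0.31. For spn2 the loss of spliced reads in introns 2, 3 and 4 came with no more than 44 unspliced reads in each at 34 °C.

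**Figure D4:**
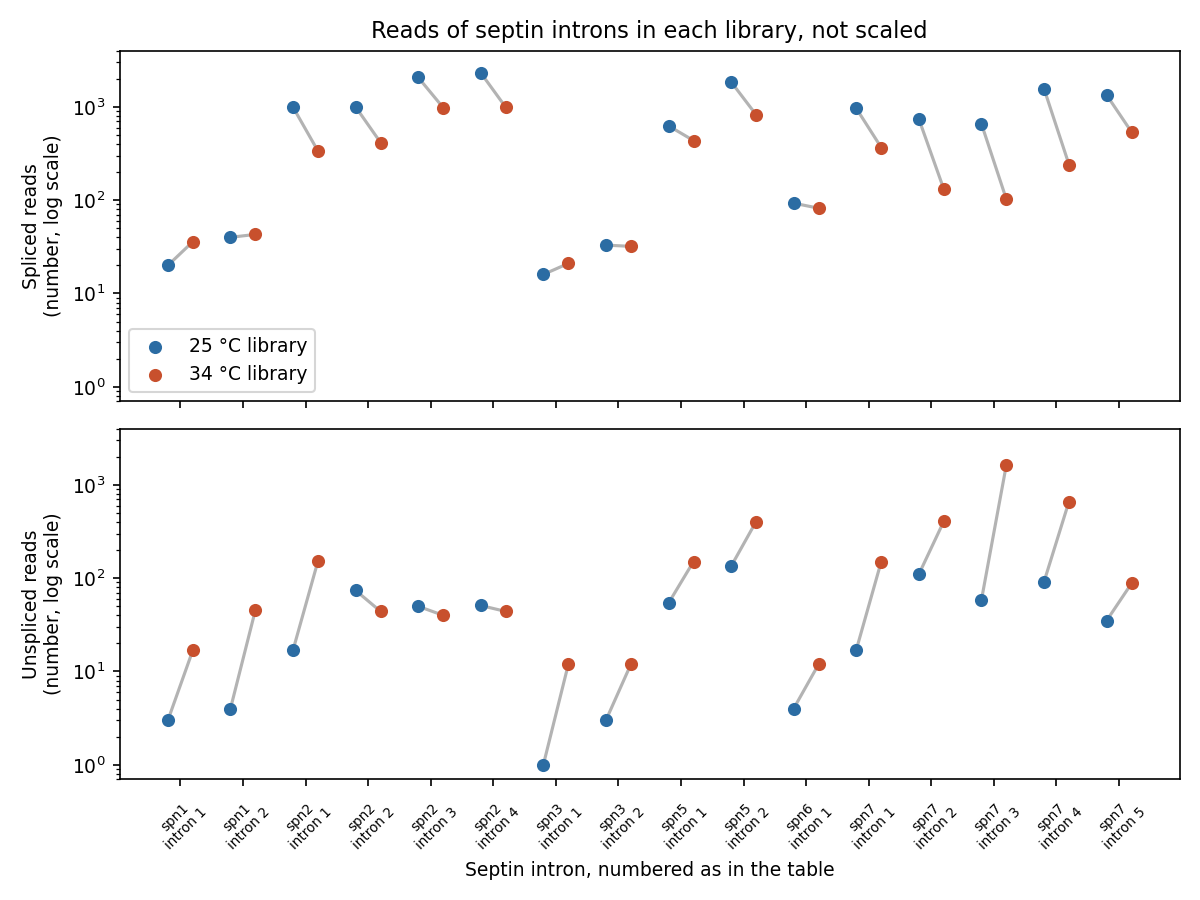
Spliced reads (upper panel) and unspliced reads (lower panel) of each septin intron on log axes, not scaled, with the 25 °C library in blue, the 34 °C library in orange and a grey line joining the 2 libraries. In introns 2, 3 and 4 of spn2 both kinds of reads are fewer at 34 °C, whereas in intron 3 of spn7 the unspliced reads go from 58 to 1652.

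**Figure D5:**
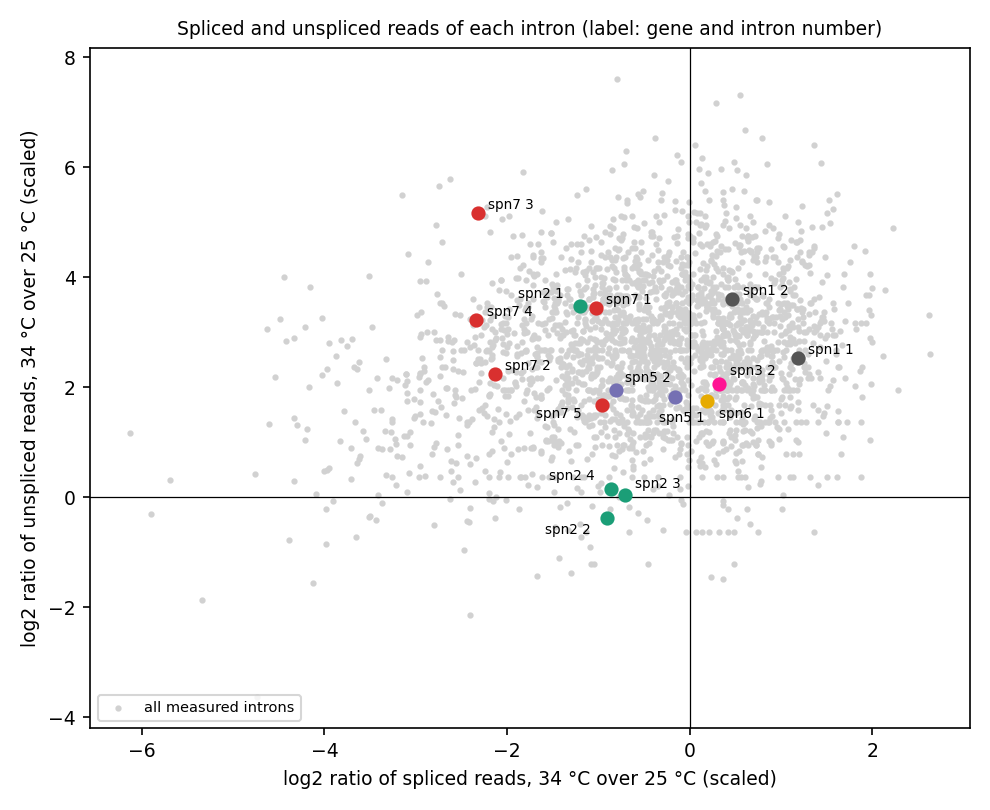
log2 ratio, 34 °C over 25 °C, of spliced reads (horizontal axis) and of unspliced reads (vertical axis) for the 15 measured septin introns (coloured and labelled by gene and intron number) and all 2508 measured introns (grey), scaled by library totals with 1 read added to each count. Intron 3 of spn7 lies at -2.32 and 5.18, and introns 2, 3 and 4 of spn2 lie between -0.90 and -0.71 for spliced and between -0.37 and 0.16 for unspliced reads.

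The 5′ splice sites of the 16 placed septin introns were of 10 kinds. The commonest site of the genome, GTAAGT, which begins 27.5% of 5040 placed introns, was found in 3 of them. Intron 3 of spn7 begins with GTACGA, found in 1.25% of introns. The direction of numbering was read from the relation of splice site to unspliced share, so changes by splice site are given over the measured introns whose place is the same under either numbering, a choice made after seeing the data. The 13 such introns with GTACGA, intron 3 of spn7 among them, had a median change of 59.4 points. Intron 4 of spn7 begins with GTAATA, found in 0.734% of introns, and intron 2 with GTAAGA, found in 6.61%. If the table counts along the transcript, GTAATA belongs to intron 2 and GTAAGA to intron 4, so no change is set beside these sites.

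In spn2, whose introns have the same place under either numbering, intron 1 begins with GTATGA, and the 89 measured introns of fixed place with this site had a median change of 39.6 points. Introns 3 and 4 begin with GTATGT and GTAAGT, with medians of 29.5 and 22.2 points over introns of fixed place. Intron 2 begins with GTACGT, with a median of 36.5 points over 84 such introns, and it holds none of the 4 branch site motifs. At least 1 of the 4 motifs is found in 76.3% of placed introns, and in 14 of the 16 of the septins. The other septin intron without them is that of spn6. The 4 introns of spn2 each changed by less than the median for their splice site, and intron 3 of spn7 by more. Both genes were shown because they hold the smallest and largest changes of the family, so this comparison carries no separate weight.

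U2AF binds the last bases before the 3′ splice site. Of the 14 bases before the last 3, intron 3 of spn7 has 9 pyrimidines, of which 7 are uridines in the RNA. Introns 2, 3 and 4 of spn2 have 7, 8 and 8 pyrimidines, of which 5, 3 and 6 are uridines. Intron 1 has 6, of which 5 are uridines. In intron 3 of spn7 and introns 1, 3 and 4 of spn2 these 14 bases include the branch site motif. Between the motif and the last 3 bases, 4 of 7 bases are uridines in intron 3 of spn7. In introns 1, 3 and 4 of spn2 they are 3 of 5, 0 of 4 and 2 of 5. From the branch site A to the end of the intron there are 11 nt in intron 3 of spn7, and 9, 8 and 9 nt in introns 1, 3 and 4 of spn2. The septin introns are 37 to 226 nt long with a median of 55 nt, beside 56 nt for all placed introns, and 11.0% of placed introns are longer than the 151 nt of intron 3 of spn7.

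All 16 placed introns interrupt coding sequence. Read on in the annotated frame, a retained intron meets a stop codon in 14 of them. The same reading was not made for all placed introns, so this count is not a trait particular to the septins. In intron 3 of spn7 the stop begins at base 34 of the intron, and in intron 1 of spn2 at base 21. Intron 2 of spn2, with 58 nt, holds no stop in frame and would shift the frame after it. The 42 nt intron of spn7 nearest its 3′ end holds none and keeps the frame. These are readings of the sequence, and protein was not measured.

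Reads of transcripts on the other strand could enter the unspliced counts, since the use of strand is not given in the sources used here. With introns counted from the left end, an annotated exon of another gene overlaps 12 of the 15 measured septin introns. This holds for 58.5% of measured introns with a place. All 4 introns of spn2 lie inside SPNCRNA.702 and all 5 of spn7 inside SPNCRNA.1588, non-coding RNAs on the opposite strand. The intron of spn6 lies in an exon of dcr1, the Dicer gene, on the opposite strand. The introns of spn5, intron 2 of spn1 and intron 1 of spn3 are free of such overlap. If the introns are counted along the transcript, the measured intron 2 of spn3 is free in place of its intron 1. The levels of these overlapping RNAs were not measured here, and their part in the values was not tested.

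Genes that work beside the septins were read from 3 lists that were also chosen with earlier results of these data known. In the list of septin ring partners, exocyst subunits and cell separation genes, 7 of 9 measured introns rose by over 20 points, or 77.8% against 67.6% of all measured introns. Their median change was 28.8 points, beside 32.3 points over all measured introns. It rests on 3 genes, rho3, rho4 and sec15. The widest change was in intron 4 of sec15, an exocyst subunit gene, with 0 of 24 reads unspliced at 25 °C, which allows a share of up to 12.5%, and 26 of 40 at 34 °C. The smallest was in its intron 2, from 0 of 64 reads, which allows up to 4.69%, to 14 of 88.

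In the list of the contractile ring, the actomyosin ring that the septin ring follows at division, 7 of 12 measured introns of 6 genes rose by over 20 points, or 58.3% against 67.6% of all measured introns. Their median change was 26.6 points, beside 32.3 points over all. Intron 2 of cdc4, for a myosin light chain, rose from 6.55% of 290 reads to 77.1% of 353. Intron 1 of cdc3, the profilin gene, had 9.38% of 32 reads and 10.6% of 47. In the list of forespore membrane genes, 7 of 12 measured introns of 7 genes rose by over 20 points, again 58.3% against 67.6%. Their median change was 61.0 points, beside 32.3 points over all. Intron 2 of mug27, for a meiotic kinase that acts in forespore membrane growth, had 0 of 102 reads unspliced at 25 °C, which allows up to 2.94%, and 34 of 42 at 34 °C. Intron 3 of dms1 had 7.23% of 83 reads and 9.46% of 74.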

How the data were processed

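PolyA RNA was sequenced from 1 library per temperature. The submitters' processing notes name TopHat and SAMtools without versions. The deposited table holds, per the file headers, whole counts of spliced and unspliced reads per intron, without scaling. Beside the counts the authors deposited a ratio, spliced over unspliced reads after each count of 0 became 1, and all 10748 ratios matched recomputation within a relative tolerance of 1e-06. A smaller deposited table repeats introns with over 50 reads in each library and was not used. Not given in the sources used here are the genome build and its annotation, the counting tool, whether strand was used, and what made a read unspliced.

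Unspliced shares were computed for introns with at least 20 reads in each library (15 of 17 septin introns), with exact Clopper-Pearson 95% intervals, and changes with Newcombe 95% intervals, in Python 3.11.15 with scipy 1.17.1. Both were checked on simulated data. A change of over 20 points was counted, and no test was made, since each group is 1 library. Reads that are PCR copies are not independent, so intervals may be too narrow. Read ratios were scaled by library totals with 1 added to each count. Members, lists and the rules for counting were chosen with earlier results of these data known. All septin introns are named, with the largest and smallest change of each other list and the 3 introns nearest in pattern.

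Introns were placed by number on ASM294v3 in 2427 of 2548 genes whose intron number equals that of 1 annotated transcript, which may differ from the authors' annotation. The direction of numbering was read from these data: within minus-strand genes (827 introns) the correlation across introns of the ranks of 5′ splice site score and share at 34 °C was -0.177 when counted from the left and -0.058 along the transcript, and in plus-strand genes it was -0.219. The score compares bases 3 to 6 of an intron with their frequency among all placed introns, on a log2 scale. Introns of a gene share transcripts, so these values carry no p.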

Additional observations from a re-analysis of the deposited data

How the results depend on the processing

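No paired analysis was possible because each temperature has 1 library, and for the same reason no library could be left out. Of 15 measured septin introns, the number that rose by over 20 points was 7. It was 4 with unspliced reads halved (an unspliced transcript has 2 exon-intron borders), 11 with a threshold of 10 points, 4 with 40 points (against 67.6%, 83.7% and 40.2% of all measured introns over 20, 10 and 40 points), and 2 of 3 without introns overlapped by another gene. With unspliced reads halved the share of all measured introns over 20 points was 52.0%. Overlap was read with introns counted from the left end, and that of spn3 would differ under the other numbering. The share of all introns without overlap that rose by over 20 points is not given here. The median septin change of 19.03 points became 22.6 with a minimum of 10 reads, 22.0 with 50 reads, 12.1 with unspliced reads halved, 26.2 without overlapped introns and 23.6 with 1 value per gene. With unspliced reads halved the median over all measured introns was 21.7 points, and under the other settings it is not given here. The value per gene pools the reads of all its introns, also those of intron 1 of spn3. Septin genes with introns over 20 points apart were 3 of 4, against 58.1% of 627 genes. They became 1 of 4 both with unspliced reads halved and with a threshold of 40 points. A minimum of 50 reads gave 2 of 3. The share of all genes under these other settings is not given here, so the lower counts cannot be read as particular to the septins. Halving took 7 of 16 septin introns outside the interval of their change and reversed none. Among the 33 measured introns of the 3 lists, 21 rose by over 20 points (67.6% of all measured introns did) and 13 by over 40 points (40.2% of all did). With a minimum of 10 reads 32 of 46 rose by over 20 points, and the share of all introns at that minimum is not given here. The median log2 ratio of all septin reads, -0.33, was -0.70 without scaling, -0.79 scaled by the median ratio over introns, -0.86 for spliced reads only, -0.53 with a minimum of 50 reads, and reversed to 0.31 scaled by spliced totals. Replacing 0 by 1 changed no count. No septin intron with reads held a count of 0, so for the septins this setting could change nothing. Halving and scaling act by construction, and the cause of the other shifts was not tested. Depth limits spn1, spn3 and spn6, whose introns had 17 to 97 reads at 25 °C.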
